A study of Mus musculus with 10 samples.

Results

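The genes examined here are 35 mouse genes regulated by the sterol regulatory element-binding proteins (SREBPs) or encoding the SREBPs themselves. They were listed by gene name, from their known place in the pathway, with earlier results of these data known. They were kept apart as a sterol arm of 21 genes for cholesterol synthesis and a lipogenic arm of 14 genes for fatty acid synthesis. All 35 were found by symbol among the 55401 genes of the count table, and all 35 were among the 14098 genes that passed the filter on low counts. Their levels were measured by RNA-seq of polyadenylated RNA in livers of female mouse fetuses at stage E18.5, with 1 fetus per library. The compared groups were 5 Mir483Pat-KO fetuses, which inherited a constitutive deletion of the microRNA gene Mir483 from their father, and 5 wild-type (WT) littermates. Mir483 lies within Igf2 and is imprinted, with the paternal copy expressed. The deletion was made in C57BL/6N-derived embryonic stem cells from independent targeted clones, its selection cassette was removed by Cre recombinase, and the colony was kept on a C57BL/6J background. The deletion is present in every tissue, so the livers do not separate an action within hepatocytes from one elsewhere in the fetus, and no group received a treatment.

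SREBPs are transcription factors made as precursors in the membrane of the endoplasmic reticulum. When membrane sterols are scarce, the escort protein Scap carries the precursor to the Golgi, where proteases release a fragment that enters the nucleus and binds sterol regulatory elements. Insig proteins hold the complex back when sterols are plentiful, and Insig1 is itself a target. The Srebf2 product is known mainly for cholesterol synthesis, whereas the Srebf1 product, raised by insulin in liver, is known mainly for fatty acid synthesis.

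The sequences that the deletion removes, and promoter stretches with the classical elements of this pathway, are given first. The mature forms of miR-483 are written 5′ to 3′ from RefSeq (GRCm38.p6, chr7:142654932-142654952 for miR-483-3p and chr7:142654968-142654989 for miR-483-5p, both on the minus strand), with the seed, bases 2 to 8, in capitals.
mmu-miR-483-3p: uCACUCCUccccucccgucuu
mmu-miR-483-5p: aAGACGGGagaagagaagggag
The letters complementary to these seeds were then looked for in 3′ UTRs, taking the longest one per gene. AGGAGTG, the complement of the miR-483-3p seed, was found in 3 of the 35 members (Idi1, Fasn and Fads2), a share of 8.57%, against 13.98% of the 12916 tested genes with an annotated 3′ UTR. CCCGTCT, the complement of the miR-483-5p seed, was found in 1 member (Elovl5), or 2.86%, against 3.67% of those genes. These matches describe letters only.

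RefSeq promoter windows, covering 250 bases before to 50 bases after the start, were held for 28 of the 35 members, 17 sterol and 11 lipogenic. Both strands were searched for 4 motifs. The sterol regulatory element core TCACNCCAC was in 1 member, Hmgcs1, in 1.44% of the 27025 genes with a window and in 1.39% of the 10622 tested genes with one. The E-box CACGTG was in 5 members (Insig1, Dhcr7, Sc5d, Hsd17b7 and Elovl5), in 8.09% of all genes and in 11.5% of tested genes. The CCAAT motif, known to bind NF-Y, was in 24 of the 28 members, 16 of 17 sterol and 8 of 11 lipogenic, in 41.1% of all genes and in 43.0% of tested genes. GGGCGG, a core bound by Sp factors, was in 22 members, 16 sterol and 6 lipogenic, in 38.2% of all genes and in 66.4% of tested genes. The 200 bases before the start are printed on the gene's strand for Hmgcs1 (chr13:119690151-119690350, plus), the member with the sterol element, and for Insig1 (chr5:28071212-28071411, plus) and Fasn (chr11:120824548-120824747, minus), chosen after their values were seen as a high sterol and a central lipogenic member. Capitals mark any of the 4 motifs on either strand.
Hmgcs1: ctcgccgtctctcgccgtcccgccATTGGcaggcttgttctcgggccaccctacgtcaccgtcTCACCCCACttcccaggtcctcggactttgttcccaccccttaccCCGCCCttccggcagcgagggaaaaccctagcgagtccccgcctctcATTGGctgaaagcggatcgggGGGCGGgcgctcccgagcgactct
Insig1: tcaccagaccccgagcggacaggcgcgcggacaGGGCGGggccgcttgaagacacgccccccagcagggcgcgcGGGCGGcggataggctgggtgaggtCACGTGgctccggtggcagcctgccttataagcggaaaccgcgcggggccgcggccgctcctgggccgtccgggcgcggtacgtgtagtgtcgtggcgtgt
Fasn: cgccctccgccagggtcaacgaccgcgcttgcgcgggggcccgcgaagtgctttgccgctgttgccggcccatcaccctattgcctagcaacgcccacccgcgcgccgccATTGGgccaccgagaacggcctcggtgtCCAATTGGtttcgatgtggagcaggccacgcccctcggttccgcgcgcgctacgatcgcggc
In Hmgcs1 the sterol element began 137 bases before the start, between CCAAT motifs in reverse orientation at 176 and 45 bases. In Insig1 the E-box began 101 bases before the start. In Fasn 3 CCAAT motifs began 90, 62 and 59 bases before the start, those at 62 and 59 overlapping. Another spelling of an element would not be found by this search.

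Libraries held 10831350 to 14765880 counts. Mir483 itself had 11, 10, 22, 21 and 12 counts in the WT libraries and 0 in every Mir483Pat-KO library, each of which allows up to 3 counts. Counts are of transcripts spanning the gene, not of the mature microRNA. Hepatocyte markers were abundant in all 10 livers, with a summed normalised read count, scaled to library size (CPM), of 187700 to 209000 in WT and 168600 to 196100 in Mir483Pat-KO, and 7 of the 8 were lower in Mir483Pat-KO with 0 passing. Passing means an adjusted p under 0.05 by edgeR's quasi-likelihood test, and 2.76% of all genes tested passed lower and 2.43% higher. At an unadjusted p under 0.05 these shares were 10.7% and 11.5%. Erythroid markers summed to 16540 to 21250 CPM in WT and 19360 to 27270 in Mir483Pat-KO. Of them 11 of 12 were higher and 3 passed, Hbb-bs and Rhag among them. Proliferation markers summed to 2317 to 2732 CPM in WT and 2743 to 3018 in Mir483Pat-KO, so the sums did not overlap. Much of the sum was Mki67, with a WT mean of 1423 of 2510 CPM. Of the 8 genes 6 were higher and 2 lower, and 1 passed, Ccnb1. Groups did not overlap in 2 of the 8, both higher, against 3.34% of all genes tested. Of the other marker lists, stellate and mesenchymal genes summed to 487.2 to 983 CPM in WT and 439 to 727 in Mir483Pat-KO, with 6 of 6 lower (median log2 fold change -0.49), 5 of them at an unadjusted p under 0.05 and 0 passing, and macrophage genes to 700.3 to 879 against 637 to 832 CPM with 4 of 8 lower and 4 higher (median log2 fold change -0.02), 2 passing lower (Clec4f and C1qa) and 0 passing higher. Endothelial, megakaryocyte and granulocyte lists had 0 genes passing. Bulk RNA cannot tell fewer cells of a type from less RNA per cell, and the part of these shifts in the members' values was not tested.

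Several libraries stood apart. The fetuses carry identification numbers that fall in a lower and an upper range, and the groups are unevenly spread over them. WT 1 to 4 and Mir483Pat-KO 1 and 2 are in the lower range, and WT 5 and Mir483Pat-KO 3 to 5 in the upper. Whether a range marks a litter, day or batch is not stated. The upper range holds 1 WT library, so only the lower range could be tested on its own, with 2 Mir483Pat-KO libraries. WT 2 and Mir483Pat-KO 3 had the lowest lipogenic levels of their groups, and results are given with and without them. They also had the highest mitochondrial share of counts of their groups, 2.35% in WT 2 (others 0.920 to 2.10%) and 2.12% in Mir483Pat-KO 3 (others 1.57 to 1.97%), and the part of this in the members' values was not tested.

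Levels are first described per kilobase of exon, which allows genes to be compared. In the sterol arm of WT livers Insig1 had the highest mean, at 136 ± 47.2 CPM per kb (SD, n = 5). Hmgcs1, the enzyme that makes HMG-CoA for the mevalonate pathway, followed at 93.5 ± 6.09. The gap between Insig1 and Hmgcs1 was smaller than the SD of Insig1. Ebp, a sterol isomerase, had 40.5 ± 2.88 and Fdft1, squalene synthase, 40.0 ± 4.68 CPM per kb, which did not differ beyond their spread. The median over the arm was 25.4 CPM per kb. The lowest levels were those of Fdps, 3.65 ± 0.664, and Idi1, 3.46 ± 1.05, whose counting is uncertain, as described further on. In the lipogenic arm Scd2, a stearoyl-CoA desaturase, stood highest at 236 ± 35.6 CPM per kb. Its paralog Scd1 had 89.1 ± 25.8 CPM per kb. Fads2, the delta-6 desaturase of polyunsaturated fatty acids, had 83.8 ± 19.8, and Acly, ATP citrate lyase, 77.2 ± 15.4 CPM per kb. Scd1, Fads2 and Acly lay within each other's spread. The median of the lipogenic arm was 36.9 CPM per kb, and Thrsp, a cytosolic regulator of lipogenesis, was lowest at 1.85 ± 0.912. With the longest transcript in place of all exons, 21 of the 35 levels moved by more than 1 SD, and Hmgcs1 stood at 124 CPM per kb.

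**Figure D1:**
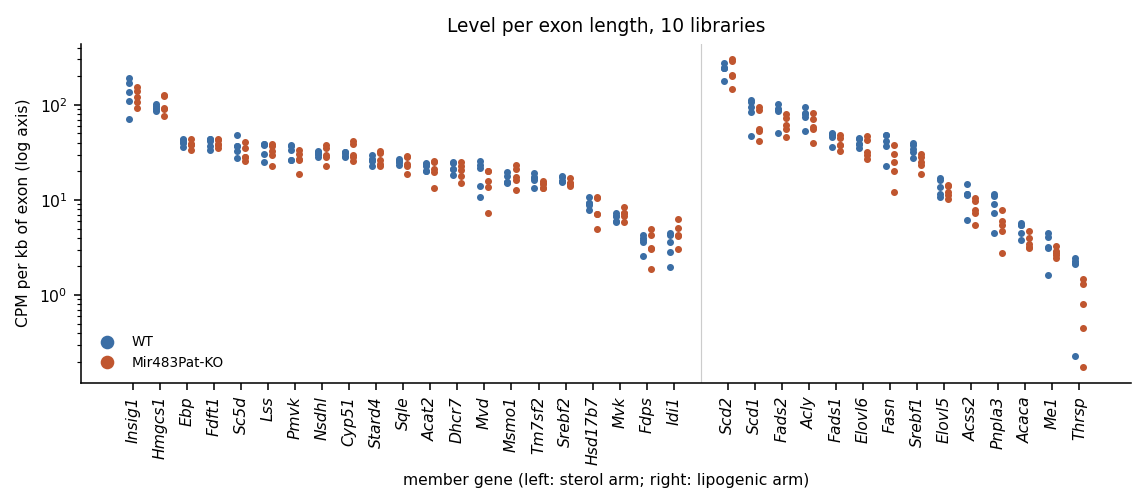
Level of each of the 35 genes in CPM per kb of exon on a log axis, 1 point per library, with WT in blue and Mir483Pat-KO in red-brown, ordered within each arm by the WT mean. Insig1 (WT mean 136) and Scd2 (WT mean 236) lead their arms, and the points of both groups overlap for every gene.

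In Mir483Pat-KO livers all 14 lipogenic members had a lower fitted level than in WT, and 2 of them fell, Srebf1 and Acaca. The median log2 fold change of the arm was -0.42, against 0.0042 over all genes tested, with members ranging from -1.17 (Thrsp) to -0.04 (Scd2). In the sterol arm 15 members were lower and 6 higher, with a median of -0.08 and a range of -0.32 (Mvd) to 0.42 (Idi1), and 0 passed. A gene passed where its adjusted p by edgeR's quasi-likelihood test was under 0.05. Of all genes tested, 2.76% passed lower and 2.43% passed higher in Mir483Pat-KO, so 2 of 14 lipogenic members and 0 of 21 sterol members passed lower and no member of either arm passed higher. No member passed with a fold change over 1.5, against 0.872% of genes passing lower by that much. No member had groups that did not overlap, against 3.26% of genes with every Mir483Pat-KO library below every WT library and 3.34% with every one above. At an unadjusted p under 0.05 there were 7 lipogenic members, all lower, and 0 sterol members, against 10.7% of all genes tested lower and 11.5% higher, and DESeq2 also passed 2 and 0.

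**Figure D2:**
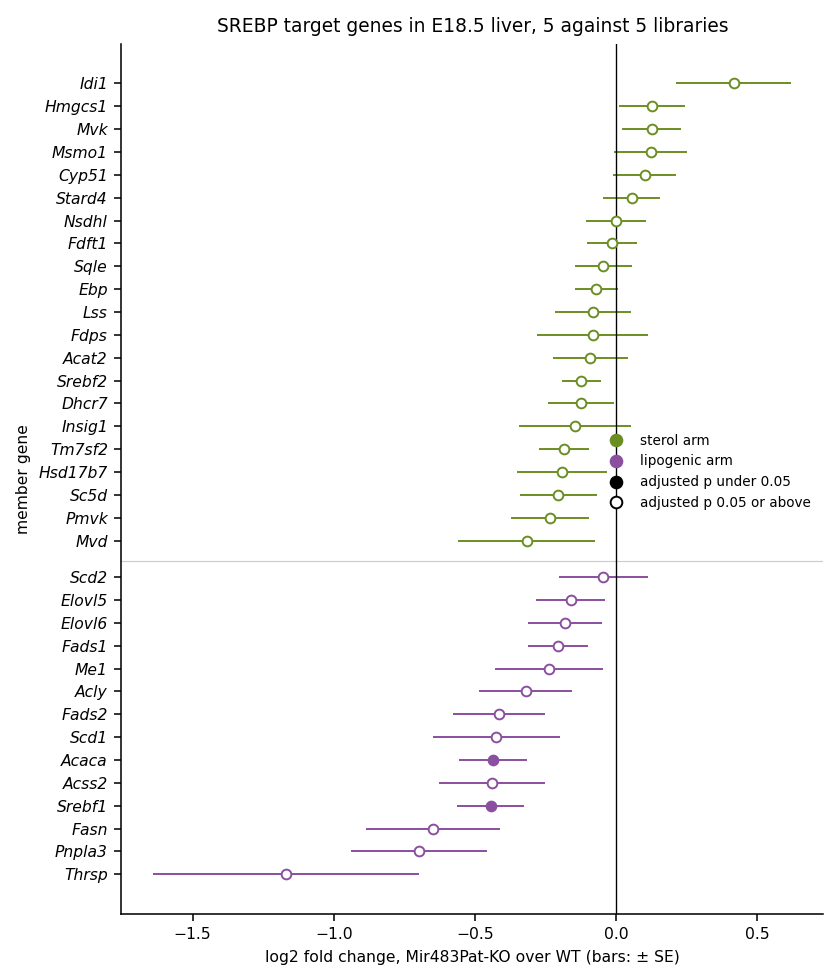
log2 fold change of each member, Mir483Pat-KO over WT, with its standard error (5 against 5 libraries), sterol arm in green above and lipogenic arm in purple below. Filled points have an adjusted p under 0.05 by edgeR: Srebf1 and Acaca, at -0.44 each. All 14 lipogenic points lie below 0, and the sterol points lie on both sides.

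Srebf1 (ENSMUSG00000020538, chr11:60199089-60222581, minus strand) encodes the SREBP that drives fatty acid synthesis. WT libraries 1 to 5 held 191, 155, 182, 226 and 215 CPM, and Mir483Pat-KO libraries 170.0, 143, 107, 133 and 160 CPM. Of the Mir483Pat-KO values 3 lay below every WT value, and Mir483Pat-KO 1 and 5 lay above WT 2. The mean fell from 194 ± 28.2 to 142 ± 24.6 CPM (SD, n = 5), a log2 fold change of -0.44 (SE 0.118, adjusted p 0.0408). Acaca (chr11:84129672-84401651, plus strand), acetyl-CoA carboxylase, makes malonyl-CoA, the committed step of fatty acid synthesis. Its levels were 77.1, 65.4, 92.1, 93.0 and 97.0 CPM in WT livers and 79.8, 67.7, 53.0, 54.7 and 58.8 in Mir483Pat-KO livers. The upper-range Mir483Pat-KO libraries lay below every WT library, while Mir483Pat-KO 1 and 2 lay among them. The mean fell from 84.9 ± 13.3 to 62.8 ± 11.1 CPM, a log2 fold change of -0.44 (SE 0.120, adjusted p 0.0455). Both adjusted p-values lay close to the threshold. Leaving out 1 library at a time, the log2 fold change of Srebf1 stayed between -0.52 and -0.37, and its adjusted p, up to 0.104, was under 0.05 only without WT 2, Mir483Pat-KO 1 or Mir483Pat-KO 5. That of Acaca stayed between -0.55 and -0.38, and its adjusted p, up to 0.121, was under 0.05 only without WT 1, WT 2 or Mir483Pat-KO 1. Srebf1 also did not pass after offsets for GC content and length (-0.32, adjusted p 0.0848), nor Acaca with the number range as a covariate (-0.39, adjusted p 0.0579). Within the lower range alone the log2 fold changes were -0.27 for Srebf1 (adjusted p 0.402) and -0.16 for Acaca (adjusted p 0.653).

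Fasn (chr11:120805846-120824547, minus strand), fatty acid synthase, builds palmitate from malonyl-CoA. WT libraries held 523, 248, 402, 532 and 451 CPM and Mir483Pat-KO libraries 412.1, 334, 131, 222 and 277 CPM. WT 2 sat among the Mir483Pat-KO values and Mir483Pat-KO 1 among the WT values. The log2 fold change was -0.65 (SE 0.239, adjusted p 0.123), which did not pass. Pnpla3 (chr15:84167837-84187236, plus strand), a lipid droplet protein and SREBP target, had 17.0, 7.04, 11.3, 17.7 and 13.9 CPM in WT livers and 12.0, 9.20, 4.29, 8.39 and 7.37 in Mir483Pat-KO livers. Its log2 fold change was -0.70 (SE 0.241, adjusted p 0.101). Thrsp (chr7:97412938-97417730, minus strand) had 4.97, 0.503, 4.79, 5.31 and 4.65 CPM in WT livers and 3.20, 1.75, 0.383, 2.89 and 0.987 in Mir483Pat-KO livers, resting on as few as 5 counts. Only Mir483Pat-KO 3 lay below the lowest WT library, WT 2, and the log2 fold change was -1.17 (SE 0.471, adjusted p 0.157). Fasn and Thrsp were chosen after their values were seen. Without WT 2 and Mir483Pat-KO 3 the log2 fold changes of these 3 were -0.62, -0.70 and -1.19 with adjusted p of 0.0317, 0.0289 and 0.0220, and 7 lipogenic members passed. Leaving out WT 2 alone also brought the number to 7. It was 4 without Mir483Pat-KO 1, 1 without WT 1 or Mir483Pat-KO 5, and 0 without any one of WT 3, WT 4, WT 5 and Mir483Pat-KO 2, 3 and 4.

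The desaturases did not pass, and differences between them were not tested. Scd1 (chr19:44394455-44407879, minus strand) had 524, 232, 466, 549 and 409 CPM in WT livers and 463, 430, 202, 272 and 257 in Mir483Pat-KO livers, a log2 fold change of -0.42 (SE 0.225, adjusted p 0.282). Its neighbour Scd2 (chr19:44293674-44306864, plus strand) had 1338, 967, 1320, 1495 and 1327 CPM in WT livers and 1646, 1568, 809, 1097 and 1130 in Mir483Pat-KO livers. Mir483Pat-KO 1 and 2 exceeded every WT library and Mir483Pat-KO 3 lay below every one, and the fold change was -0.04 on the log2 scale (SE 0.159, adjusted p 0.902). Fads2 (chr19:10062765-10101746, minus strand) had 284, 165, 298, 338 and 295 CPM in WT livers and 262, 237, 150.0, 185 and 201 in Mir483Pat-KO livers, with a log2 fold change of -0.42 (SE 0.164, adjusted p 0.148). Per kilobase of exon Scd2 stood above Scd1 in each of the 10 libraries.

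The remaining 6 lipogenic members did not pass, with adjusted p-values from 0.181 for Acss2 to 0.498 for Me1. Acss2, which makes acetyl-CoA from acetate, ranged over 62.8 to 149 CPM in WT and 54.8 to 106 in Mir483Pat-KO (log2 fold change -0.44). Acly, which makes it from citrate, ranged over 282 to 507 against 210 to 434 CPM (-0.32). For both, the lowest WT library was WT 2 and the lowest Mir483Pat-KO library was Mir483Pat-KO 3. Me1, malic enzyme and a source of NADPH, ranged over 6.20 to 17.5 against 9.42 to 12.7 CPM (-0.24), so the WT range enclosed the Mir483Pat-KO range. Fads1, the delta-5 desaturase, ranged over 175 to 245 against 157 to 231 CPM (-0.21). The elongase Elovl6 ranged over 224 to 291 against 175 to 303 CPM (-0.18), the Mir483Pat-KO range reaching beyond the WT range at both ends. Elovl5, an elongase of polyunsaturated fatty acids, ranged over 38.3 to 59.8 against 36.4 to 50.5 CPM (-0.16).

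Hmgcs1 (chr13:119690379-119708260, plus strand) had the second-highest WT level per kilobase of the sterol arm. WT libraries held 470, 397, 412.1, 427.5 and 442 CPM, and Mir483Pat-KO libraries 572, 583, 351, 418 and 423 CPM. Mir483Pat-KO 1 and 2 lay above every WT value and Mir483Pat-KO 3 to 5 below the WT median. The log2 fold change was 0.13 (SE 0.118, adjusted p 0.560). Insig1 (chr5:28071363-28078662, plus strand) had 588, 220, 342, 524 and 424 CPM in WT livers and 471, 432, 288, 373 and 334 in Mir483Pat-KO livers. Its WT values differed 2.67-fold between the highest and the lowest library and enclosed every Mir483Pat-KO value, and the log2 fold change was -0.14 (SE 0.199, adjusted p 0.716). Ebp (chrX:8185329-8193512, minus strand) had 100.3, 92.1, 98.9, 83.6 and 93.2 CPM in WT livers and 90.6, 101, 77.8, 89.7 and 87.1 in Mir483Pat-KO livers, with a log2 fold change of -0.07 (SE 0.0759, adjusted p 0.629).

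Srebf2 (chr15:82147181-82205379, plus strand) was steady among libraries. It had 111, 114, 113, 129 and 125 CPM in WT livers and 108, 101, 107, 106 and 121 in Mir483Pat-KO livers. Of the Mir483Pat-KO values 4 lay below every WT value, and the log2 fold change was -0.12 (SE 0.0691, adjusted p 0.313). Tm7sf2 (chr19:6062821-6068373, minus strand), a sterol reductase, and Idi1 (chr13:8885501-8892451, plus strand), isopentenyl diphosphate isomerase, had the smallest p of the arm. Tm7sf2 had 84.2, 58.4, 71.1, 74.8 and 76.1 CPM in WT livers and 70.4, 59.4, 58.8, 65.4 and 66.5 in Mir483Pat-KO livers, a log2 fold change of -0.19 (SE 0.0883, adjusted p 0.230). Idi1 had 15.2, 15.8, 12.7, 10.01 and 6.98 CPM in WT livers and 17.9, 22.3, 10.7, 15.1 and 14.6 in Mir483Pat-KO livers, and its log2 fold change of 0.42 (SE 0.203, adjusted p 0.240) passed with the number range as a covariate, at 0.70 (adjusted p 0.0144).

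**Figure D3:**
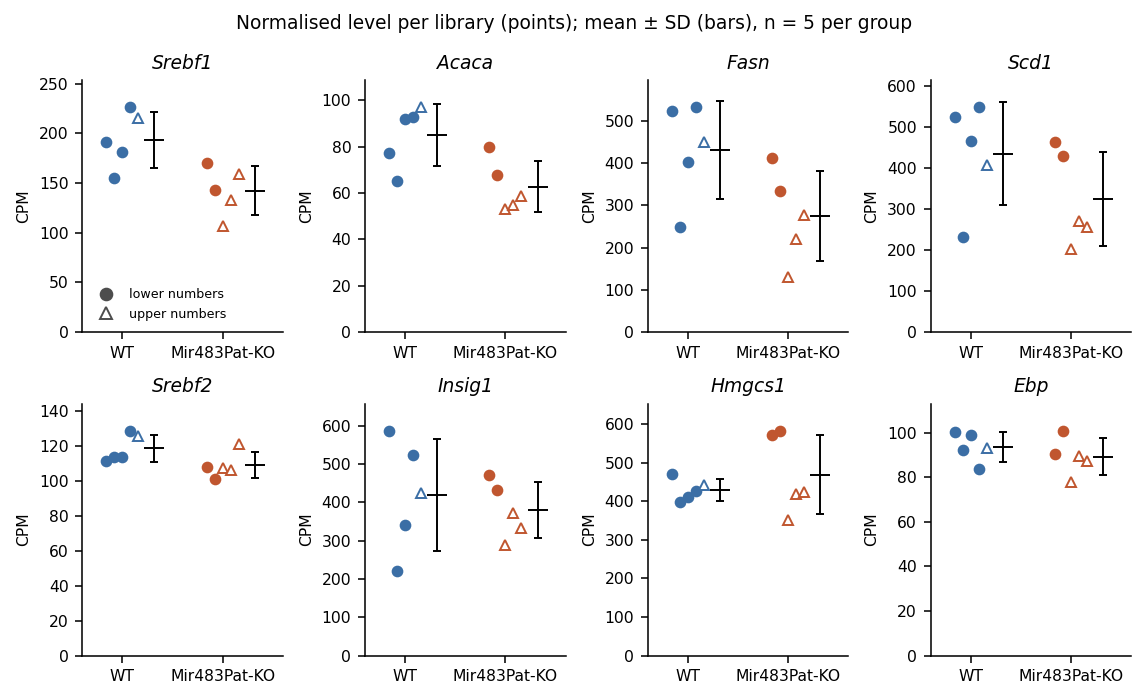
CPM per library of 4 lipogenic-side genes (Srebf1, Acaca, Fasn, Scd1) and 4 sterol-side genes (Srebf2, Insig1, Hmgcs1, Ebp), with circles for lower and triangles for upper identification numbers and bars for mean ± SD (n = 5). For Srebf1 and Acaca 3 Mir483Pat-KO libraries lie below all WT libraries, and for Hmgcs1 the 2 lower-number Mir483Pat-KO libraries lie above all of them.

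The other 15 sterol members gave log2 fold changes between -0.32 and 0.13, with adjusted p-values between 0.336 (Pmvk) and 0.995 (Nsdhl). The early steps from acetyl-CoA to farnesyl diphosphate did not share a direction. Acat2, a thiolase that starts the pathway, ranged over 51.4 to 62.1 CPM in WT and 34.1 to 65.8 in Mir483Pat-KO (-0.09), and mevalonate kinase, Mvk, over 15.5 to 19.6 against 15.6 to 22.7 CPM (0.13). Pmvk, which phosphorylates its product, ranged over 44.7 to 64.2 against 31.9 to 57.5 CPM (-0.23). Mvd, the decarboxylase after it, ranged over 20.2 to 47.9 against 13.6 to 37.4 CPM (-0.32), and Fdps, which makes farnesyl diphosphate, over 10.7 to 18.1 against 7.97 to 20.9 CPM (-0.08). In 3 of these 5 genes, Acat2, Mvk and Fdps, the highest Mir483Pat-KO library exceeded every WT library.

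From squalene to cholesterol the groups also overlapped in every gene. Fdft1, squalene synthase, ranged over 142 to 187 CPM in WT and 147 to 185 in Mir483Pat-KO (-0.01). Sqle, squalene epoxidase, ranged over 129 to 150 against 103 to 161 CPM (-0.05), and Lss, lanosterol synthase, over 272 to 414 against 247 to 417 CPM (-0.08). Cyp51, lanosterol demethylase, ranged over 125 to 142 against 114 to 184 CPM (0.10), and Msmo1, which oxidises the methyl groups, over 93.1 to 121 against 78.7 to 144 CPM (0.12). For Sqle, Lss, Cyp51 and Msmo1 the Mir483Pat-KO range reached beyond the WT range at both ends, with Mir483Pat-KO 2 highest and Mir483Pat-KO 3 lowest. Nsdhl ranged over 81.2 to 92.7 against 65.3 to 107 CPM (-0.0013), and Hsd17b7 over 40.3 to 54.4 against 25.3 to 55.2 CPM (-0.19), and both act with Msmo1 in removing these methyl groups. Dhcr7, the last reductase, ranged over 107 to 144 against 87.9 to 145 CPM (-0.13), and Sc5d, the desaturase before it, over 136 to 234 against 124 to 197 CPM (-0.20). Stard4, a cholesterol transfer protein, ranged over 127 to 167 against 128 to 184 CPM (0.06). WT libraries had a median coefficient of variation of 11.6% in this arm and 21.8% in the lipogenic arm. In Mir483Pat-KO the medians were 19.4% and 24.6%. WT 2 was the lowest WT library in all 14 lipogenic members, and the WT spread without WT 2 was not calculated.

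The members' levels also varied between libraries of 1 group. The arm score of a library is its mean log2 CPM over the arm's members, relative to the mean of all 10 libraries. Lipogenic scores were 0.36, -0.49, 0.33, 0.52 and 0.30 in WT 1 to 5 and 0.25, 0.03, -0.76, -0.23 and -0.32 in Mir483Pat-KO 1 to 5. WT 2 lay apart from the other WT libraries, below Mir483Pat-KO 1, 2, 4 and 5. Sterol scores were 0.19, -0.17, -0.05, 0.11 and 0.06 in WT and 0.21, 0.23, -0.44, -0.09 and -0.06 in Mir483Pat-KO, and the groups overlapped. Mir483Pat-KO 3 was the lowest of the 10 libraries in 12 of 14 lipogenic and 14 of 21 sterol members. WT 4 was the highest in 10 of 14 lipogenic members and Mir483Pat-KO 2 in 10 of 21 sterol members. WT 2 was the lowest WT library in all 14 lipogenic members and in 13 of 21 sterol members. The lipogenic minus the sterol score was 0.17, -0.32, 0.38, 0.41 and 0.24 in WT and 0.04, -0.20, -0.32, -0.14 and -0.26 in Mir483Pat-KO, so it was above every Mir483Pat-KO value in 4 of 5 WT libraries, and WT 2 was level with Mir483Pat-KO 3.

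**Figure D4:**
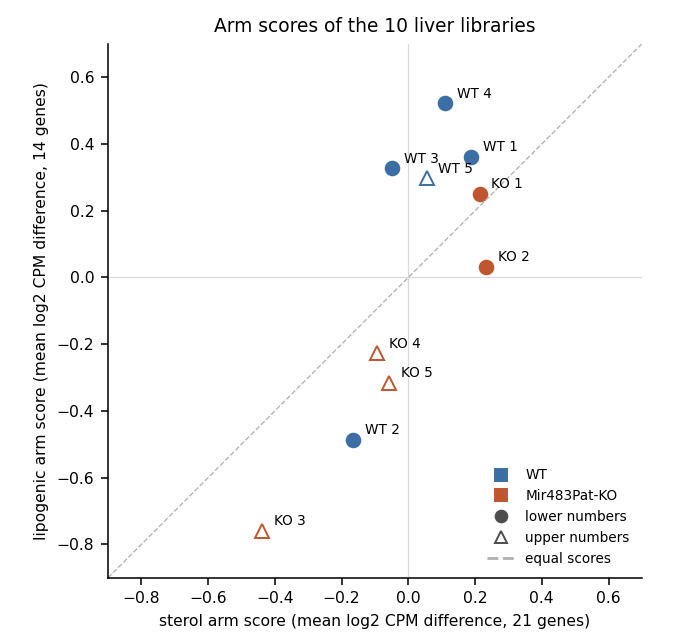
Lipogenic arm score against sterol arm score of the 10 libraries, both in mean log2 CPM relative to all libraries, with WT in blue, Mir483Pat-KO in red-brown and a dashed line where the scores are equal. WT libraries except WT 2 (-0.49) lie at lipogenic scores of 0.30 to 0.52, and Mir483Pat-KO 3 is lowest on both axes.

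The identification number range accompanied these shifts within the Mir483Pat-KO group. Both lower-range Mir483Pat-KO libraries exceeded every upper-range one in 18 of 21 sterol and 12 of 14 lipogenic members. In 8 sterol members and 1 lipogenic member, both also exceeded every WT library. Within the lower range the Mir483Pat-KO mean was below the WT mean in 2 of 21 sterol and 9 of 14 lipogenic members, and in the upper range, with its single WT library, in 19 and 14. The fitted median log2 fold change in the lower range alone was 0.20 for the sterol arm and -0.12 for the lipogenic arm, with 0 members passing, and 20 genes of the whole table passing lower and 3 higher. With the range as a covariate the medians were -0.02 and -0.30, and 1 member of each arm passed, Idi1 higher and Srebf1 lower (log2 fold change -0.42). Genotype and range cannot be fully told apart in these 10 libraries. Erythroid marker sums also followed the range in Mir483Pat-KO, at 19360 and 21000 CPM in the lower and 25460 to 27270 CPM in the upper range. In WT the single upper-range library, WT 5, had 16870 CPM, within the 16540 to 21250 CPM of the lower range. With 1 library in the upper range, whether the sums follow the range in WT cannot be told.

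The fold changes also varied with base composition. Across all genes the log2 fold change correlated with GC content at a Spearman rho of -0.44, a description over genes that share the same 10 libraries. The median GC content was 49.5% over all genes, 48.7% in the sterol arm and 50.8% in the lipogenic arm, with Srebf1 at 58.4% and Acaca at 49.1%. After offsets for GC content and length, the lipogenic median was -0.33 with all 14 still lower, Acaca remained past the threshold at -0.43, and Srebf1 at -0.32 did not (adjusted p 0.0848). The sterol median was then -0.05.

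**Figure D5:**
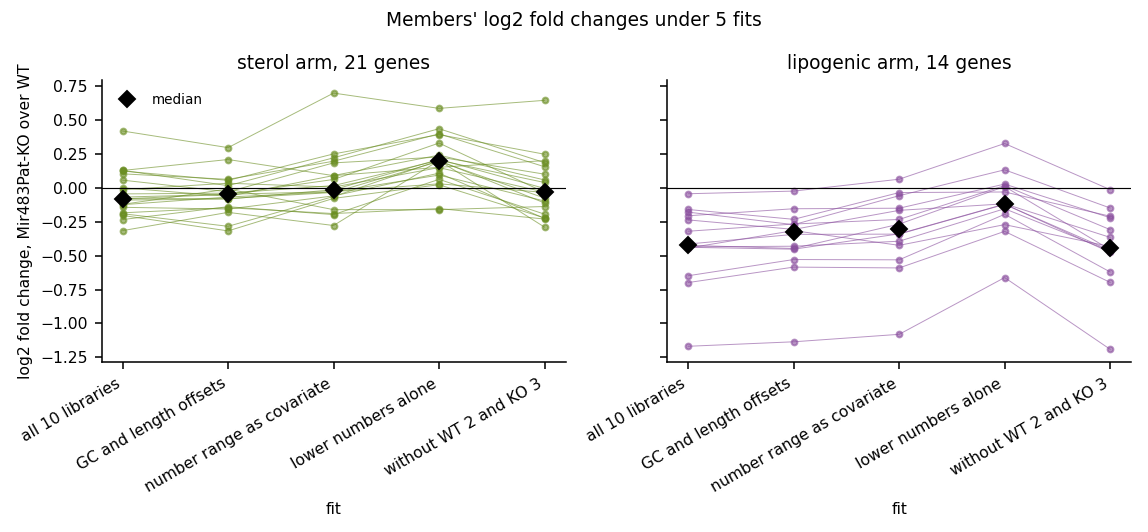
log2 fold change of each member under 5 fits, thin lines joining the same gene and black diamonds giving the median of the arm. The lipogenic median goes from -0.42 with all libraries to -0.12 in the lower number range alone, and the sterol median from -0.08 to 0.20.

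The machinery that controls SREBP activity, and the neighbouring pathways, were read from lists outside the members. Of 12 SREBP processing genes 0 passed, with a median log2 fold change of -0.03. At an unadjusted p under 0.05 there were 4, named after their values were seen, 1 lower and 3 higher. Scap, the escort protein, had 140 ± 12.4 CPM in WT livers and 117 ± 8.08 in Mir483Pat-KO livers (log2 fold change -0.26, adjusted p 0.0558). Rnf139, an endoplasmic reticulum ubiquitin ligase, had 38.9 ± 8.48 and 50.6 ± 4.603 CPM, with every Mir483Pat-KO library above every WT library (log2 fold change 0.38, adjusted p 0.0891). Mbtps2, the site-2 protease, and Rnf145, another ubiquitin ligase, had log2 fold changes of 0.33 and 0.18 (adjusted p 0.125 and 0.140). Of 20 tested genes for other cholesterol synthesis, uptake, esterification and efflux steps, 2 passed lower and 0 higher, with a median of -0.11. Of these, Abcg5, part of a sterol exporter, fell by 0.87 on the log2 scale (SE 0.232, adjusted p 0.0401) from 3.69 ± 1.13 to 2.01 ± 0.484 CPM, and over the 10 fits that left out 1 library its log2 fold change stayed between -0.96 and -0.68. The call was lost in 7 of those fits (all but WT 2, WT 3 and Mir483Pat-KO 1) and with the number range as a covariate (-0.78, adjusted p 0.0675).

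Of 24 tested genes for other fatty acid and triglyceride synthesis steps, 3 passed lower and 0 higher, with a median of -0.13. Agpat2, an acyltransferase that makes phosphatidic acid, had 84.9, 92.0, 96.8, 102 and 101 CPM in WT livers and 77.3, 69.3, 69.3, 73.7 and 71.7 in Mir483Pat-KO livers without overlap (log2 fold change -0.40, SE 0.0677, adjusted p 0.00435). Plin2, a lipid droplet coat protein, fell from 131 ± 10.5 to 102 ± 7.06 CPM, also without overlap (log2 fold change -0.37, SE 0.0730, adjusted p 0.0108). Elovl2, an elongase of polyunsaturated fatty acids, fell from 260 ± 56.7 to 185 ± 33.2 CPM (log2 fold change -0.49, SE 0.137, adjusted p 0.0490). Leaving out 1 library gave -0.59 to -0.36, and the call was lost in 7 of the 10 such fits (all but WT 2, WT 5 and Mir483Pat-KO 1), with the range covariate (-0.33, adjusted p 0.0795) and without both WT 2 and Mir483Pat-KO 3 (-0.52, adjusted p 0.0612). Of 15 other regulators of lipogenesis 1 passed lower, Mlxipl, which encodes the carbohydrate-responsive factor ChREBP, with 61.1, 47.6, 51.8, 55.8 and 56.9 CPM in WT livers and 49.4, 39.1, 33.3, 43.1 and 35.6 in Mir483Pat-KO livers. Mir483Pat-KO 1 alone overlapped the WT values, and the log2 fold change was -0.45 (SE 0.1002, adjusted p 0.0193). Agpat2, Plin2 and Mlxipl passed in all 10 fits that left out 1 library. After offsets for GC content and length Agpat2 and Plin2 still passed, at -0.30 and -0.32, and Mlxipl did not, at -0.34 (adjusted p 0.0616). Within the lower number range none of these 3 passed, at -0.36, -0.34 and -0.29 with adjusted p of 0.160, 0.201 and 0.320.

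Some members share sequence with copies elsewhere, so that reads could be split or discarded in counting. Of the 50-base words of the longest Acaca transcript, 52.6% also occur in the pseudogene Gm5182, which held 169 counts over all libraries against 9584 for Acaca. The shares were 45.9% for Acat2 (with Acat3), 26.5% for Me1, 21.3% for Idi1, 11.7% for Fdps and 10.9% for Fdft1, and 4.66% for Scd1 and 4.01% for Scd2, mostly with each other. Exons of Fdps also overlap another annotated gene on the same strand over 26.7% of their length, those of Tm7sf2 overlap Vps51 over 12.1%, and those of Pnpla3, Srebf1 and Scd2 overlap other genes over 6.78%, 1.171% and 1.116%. On the opposite strand the largest overlaps were 18.3% for Fdft1, with Ctsb, and 12.1% for Hmgcs1. Levels of Fdps, Idi1, Acat2, Me1, Acaca and Tm7sf2 are therefore uncertain relative to other genes.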

How the data were processed

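Raw counts per gene were used as deposited. Per the labels and the study's methods, the authors prepared stranded poly(A) libraries, sequenced them paired-end, aligned them to GRCm38 with STAR and counted reads on Ensembl genes with STAR. The strand setting and the rule for multi-mapping reads were not given in the sources used here. Columns were assigned by the identification number in each label. Genes were filtered with filterByExpr, scaled by TMM and compared with edgeR 4.0.16 (quasi-likelihood F-test, no covariates, 5 WT against 5 Mir483Pat-KO), with Benjamini-Hochberg adjustment over 14098 genes. CPM are TMM-scaled, and the standard error is the log2 fold change over the square root of F. Arm scores used a prior count of 2. Exon lengths, GC content and positions came from GENCODE vM21 (GRCm38), and symbols from the supplied gene names. The members and lists were chosen with earlier results of these data known. Every member was accounted for. Full values were given for members that passed, for the 3 highest levels per length and the smallest p in each arm, for the SREBP genes and Insig1, and from other lists for up to 4 genes that passed. Faxdc2 of the cholesterol list was not matched, and the processing gene Spring1 was matched through a RefSeq synonym. In data simulated for Mir483Pat-KO against WT over 13966 genes, 93.5% of 200 genes changed 2-fold were recovered. Of the genes passing there, 5.56% were unchanged ones. Smaller changes, such as the log2 fold change of -0.44 of Srebf1 and Acaca, were not simulated. Shifts shared by many genes of a library were not simulated either, so recovery of the members' changes is not known. Depth was 10831350 to 14765880 counts. The bound of 3 counts for Mir483 covers counting error only, while SDs and standard errors include variation between fetuses. Replicates are single fetuses. Alternatives covered DESeq2 1.42.0, RLE scaling, no filter, the replicate block, number ranges, leaving out each library, GC and length offsets, prior count and transcript length. Some genes that passed in the marker and pathway lists are counted but not reported by name here.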

Additional observations from a re-analysis of the deposited data

Results flagged for a closer look

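Of 74 groups of 5 values tested for a library far from the others, 2 held one, and chance alone flags about 1 in 20 groups. Both involved WT 2. Its lipogenic arm score of -0.49 lay below the nearest WT library at 0.30, a gap of 0.777 of the group's range. Its Thrsp level of 0.503 CPM lay below the nearest WT library at 4.65 CPM, a gap of 0.862 of the range. Leaving out WT 2 raised the number of passing lipogenic members from 2 to 7, with the median log2 fold change at -0.52. The number was 0 in 6 of the other 9 fits that left out 1 library (WT 3, 4 or 5, or Mir483Pat-KO 2, 3 or 4), with the median between -0.47 and -0.32.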

How the results depend on the processing

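Over 18 alternatives, 545 of 630 member fold changes kept their direction and their side of the threshold, 18 lost the call, 23 gained it and 44 changed sign, none of these with an adjusted p under 0.05, and RLE scaling and DESeq2 changed no member's call. The causes were not tested. Genes passing lower (389) and higher (342) became 609 and 551 with DESeq2, 625 and 633 with no low-count filter, 596 and 742 with the replicate block, 543 and 646 with the number range as a covariate, 20 and 3 in the lower number range alone, 192 to 475 and 87 to 389 leaving out 1 library, and 391 and 197 without WT 2 and Mir483Pat-KO 3 (chosen after seeing the data). Lipogenic members passing (2) became 9 with no filter, 4 with the replicate block, 1 with the range covariate, 0 in the lower range alone, 1 with GC and length offsets, 7 without WT 2 and Mir483Pat-KO 3, and 0 to 7 leaving out 1 library. Sterol members passing (0) became 1, Idi1, with no filter and with the range covariate. Lower members in the lower range alone were 2 sterol and 9 lipogenic, and lower sterol members were 9 to 17 leaving out 1 library.

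The sterol median reversed to 0.20 in the lower range alone and ran from -0.13 to 0.018 leaving out 1 library, with the positive value without Mir483Pat-KO 3. In the lower range alone the sign changed for Sqle (0.20), Insig1 (0.11), Fdft1 (0.15), Fdps (0.33), Lss (0.19), Dhcr7 (0.093), Sc5d (0.022), Nsdhl (0.24), Hsd17b7 (0.20), Mvd (0.20), Pmvk (0.061), Acat2 (0.21), Ebp (0.028), Acly (0.015), Scd1 (0.0083), Scd2 (0.33), Elovl6 (0.13) and Fads1 (0.026). It changed with the range covariate for Sqle (0.015), Fdft1 (0.0043), Fdps (0.060), Nsdhl (0.089) and Scd2 (0.062), with GC and length offsets for Fdft1 (0.033) and Stard4 (-0.031), without WT 2 and Mir483Pat-KO 3 for Sqle (0.038) and Nsdhl (0.057), and with no filter for Nsdhl (0.00067). Leaving out 1 library gave -0.19 to 0.023 for Acat2, -0.0093 to 0.17 for Cyp51, -0.076 to 0.025 for Fdft1, -0.26 to 0.062 for Fdps, -0.18 to 0.0082 for Lss, -0.095 to 0.076 for Nsdhl, -0.17 to 0.067 for Scd2, -0.12 to 0.029 for Sqle and -0.029 to 0.10 for Stard4. Libraries with the same replicate number were not shown to be paired: their deviations correlated at 0.06, 0.13, 0.04, -0.05 and 0.26 (mean 0.09, against -0.02 for other pairs), so the block result is given only here, where it added Fasn (adjusted p 0.0485) and Pnpla3 (0.0315) to the passing members. Precision is limited by 5 libraries per group, and for Thrsp by counts as low as 5.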
